A study of Larimichthys crocea with 2 samples.

Results

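In Larimichthys crocea, the large yellow croaker, a marine fish raised for food, the myosin light chain genes were taken as the genes whose protein name in the deposited annotation begins with myosin light chain or its regulatory and polypeptide variants, without kinases, phosphatases and interacting proteins. Of 22321 genes, 18 carried such a name, and the 10 with the highest mean over both libraries are described here. Members were thus chosen by their names and selected on their measured mean level, so that levels are given as a description. The tenth, gene12315, had a mean of 50.1 RPKM (reads per kilobase of gene model, scaled to library size), and the first one outside, gene8809, had a mean of 40.8 RPKM. All 10 passed the minimum mean of 1 RPKM, as did 15 of the 18.

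The study compared muscle of fish without treatment with muscle of fish fasted for 21 days, by RNA sequencing, with 1 library per group. The sources used here do not give strain, age, the number of fish in each library or which muscle was taken. With no replicates, no difference below has a replicate check, no test was run, and each value describes these libraries. Reads on listed genes numbered 27519918 in the control against 26593839 in the fasted library, and the 20 most abundant genes took 59.1% and 43.9% of them. The muscle label was checked against fast-fibre genes, whose summed level was 403275 RPKM in the control and 206522 RPKM in the fasted library.

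Myosin is the motor of the thick filament. Its heavy chains form the head and the tail, and the neck behind each head is wrapped by an essential and a regulatory light chain, small proteins of the calmodulin family of EF-hand proteins. Fast skeletal, slow or cardiac, and smooth or non-muscle myosins each use their own light chains. Phosphorylation of the regulatory chain switches smooth muscle myosin on and tunes force in striated muscle. In mammals the essential chains 1 and 3 of fast muscle come from a single gene, whereas here the annotation lists a gene for each, on separate scaffolds.

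The fast skeletal light chains made up nearly all of the family in both libraries and were lower in the fasted one. Of the slow and cardiac-type light chains, gene3992 and gene2822 were far lower in the fasted library and gene12315 was lower to a degree within the range of the fast chains, and 1 regulatory chain of the smooth or non-muscle type was higher. Fold differences are given as log2 ratios of the fasted to the control RPKM, each plus 0.5 RPKM, relative to the median gene, which stood at 0.48 (1.40-fold) as deposited. On this scale 7 of the 10 genes were at least 2-fold lower, against 16.6% of the 11417 genes compared, and 1 was at least 2-fold higher, against 16.1%. The median of the 10 was -1.36, beside 0 for all genes, whose middle 50% ran from -0.67 to 0.66. The limit to 10 was set on the mean of both libraries. Gene3992, gene2822, gene12315, gene11357 and gene189, all among the lower genes, passed it through their control levels. Their fasted levels, 3.26 to 39.5 RPKM, lay below that of gene8809 (57.2 RPKM, ratio 0.73), which is outside the 10. Over all 15 compared genes with a light chain name, 10 were lower and 1 was higher (median -1.28). With RPKM as deposited, 4 of the 10 were lower, against 8.88% of all genes, and 1 was higher, against 29.7%, with a median of -0.87. Scaled to the upper quartile instead, 9 of the 10 were lower and 0 higher, with 2560 of all genes lower and 1338 higher, beside 1892 and 1843 relative to the median gene. The authors' deposited table called 4 of the 10 down, against 14.5% of its 16883 genes, and 1 up, against 30.3%. The folds of that table are not relative to the median gene.

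**Figure D1:**
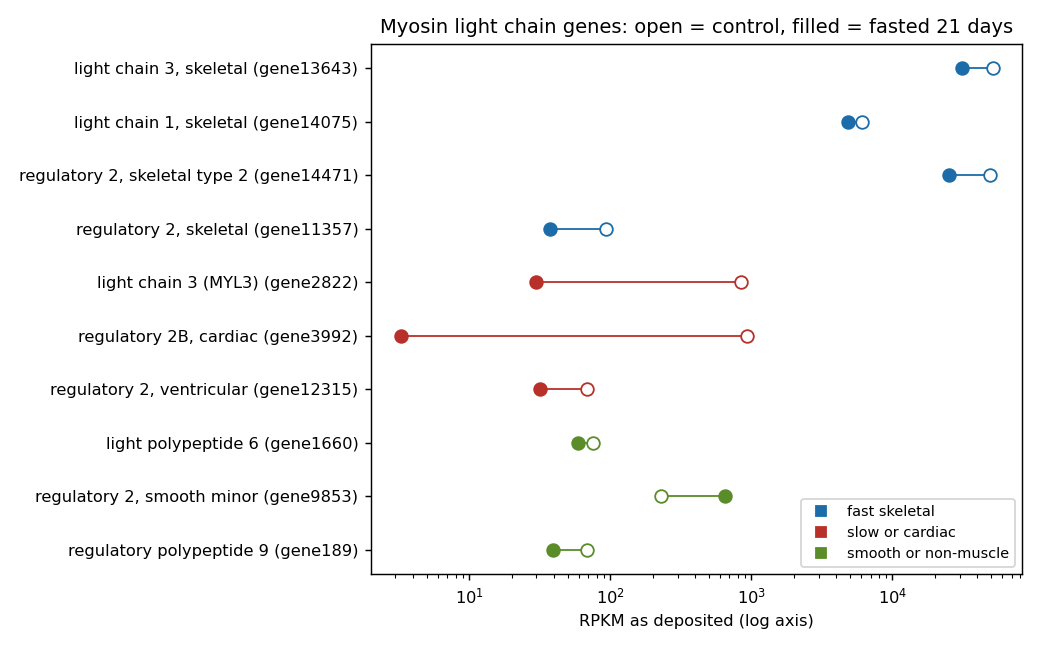
RPKM as deposited (horizontal log axis) of the 10 light chain genes in the control (open circle) and the fasted library (filled circle), coloured by type. The filled circle lies to the left for 9 genes and to the right for gene9853, and the widest gap is that of gene3992, from 928 to 3.26 RPKM.

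Myosin light chain 3 of skeletal muscle (gene13643, RefSeq symbol mylz3, an essential chain of fast fibres) was the most abundant member. Its level was 51546 RPKM in the control library, from 642638 reads, and 31001 RPKM in the fasted library, from 373488 reads. It ranked 5 and 6 among all genes. Its log2 ratio was -1.22, with a counting interval of the read ratio from -1.22 to -1.21. The gene lies on scaffold NW_011322991.1, bases 93541 to 96166, minus strand. Intervals here are 95% exact Clopper-Pearson intervals and cover counting error only. The 3 genes of at least 1000 RPKM whose ratio over the 2 libraries lay nearest to it were cytochrome b (-1.23) and the NADH-ubiquinone oxidoreductase chains 4 (-1.19) and 4L (-1.19).

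The partner regulatory chain of fast fibres, regulatory light chain 2 of skeletal muscle type 2 (gene14471, mylpfa), stood at 49154 RPKM in the control and 25399 RPKM in the fasted library, at ranks 6 and 8. Its log2 ratio was -1.44 (counting interval -1.44 to -1.43), and -0.95 as deposited, which is short of 2-fold. It lies on scaffold NW_011323073.1, bases 184953 to 188346. The other essential chain of fast fibres, light chain 1 (gene14075, myl1), stood at 6045 and 4881 RPKM. With a log2 ratio of -0.79 (counting interval -0.81 to -0.78) it was the fast gene nearest to the median gene. Its scaffold is NW_011323033.1, bases 190254 to 194896.

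Another fast regulatory chain (gene11357, mylpfb, scaffold NW_011322823.1, bases 361922 to 364395) was a minor form, at 92.9 RPKM in the control and 37.5 RPKM in the fasted library. Its log2 ratio of -1.78 (counting interval -1.94 to -1.64) was the lowest of the 4 fast genes. In RPKM the major regulatory gene exceeded it 529-fold in the control against 677-fold in the fasted library. Light chain 3 exceeded light chain 1 by 8.53-fold and 6.35-fold. Thus 3 of the 4 fast genes were at least 2-fold lower, and 1 of 4 as deposited, against 16.6% and 8.88% of all genes.

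Summed over the family, essential chains stood at 58504 RPKM in the control and 35971 RPKM in the fasted library, and regulatory chains at 50541 and 26157 RPKM. The ratio of essential to regulatory RPKM was 1.16 in the control against 1.38 in the fasted library. This ratio needs no scaling between libraries. Together the 10 genes took 5.33% of all reads in the control (95% Wilson interval 5.32 to 5.34) and 3.04% in the fasted library (3.04 to 3.05).

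**Figure D2:**
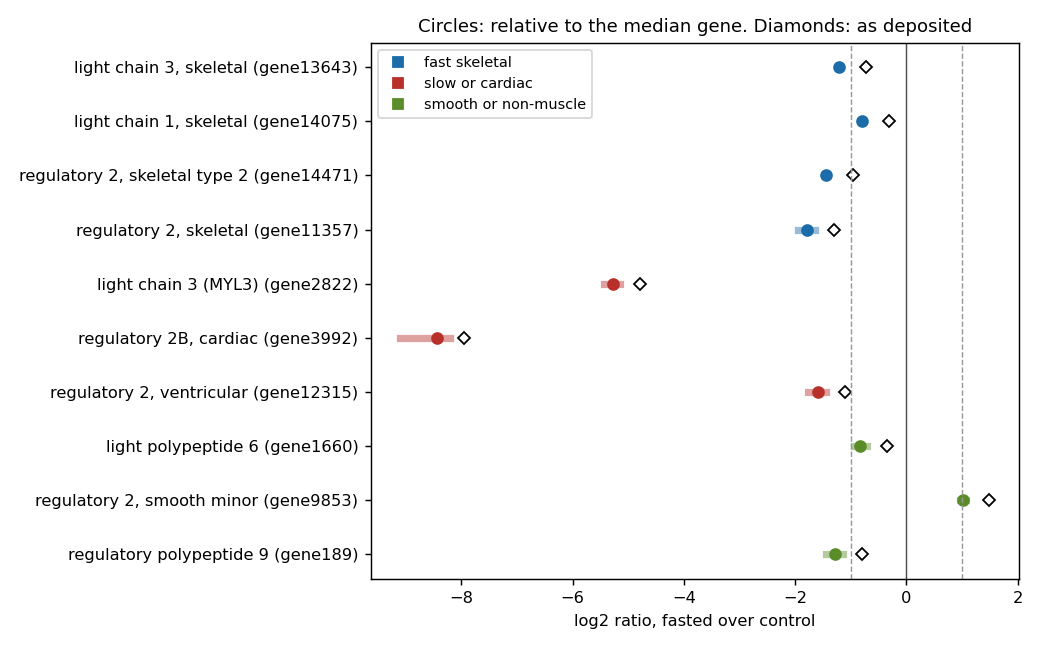
Log2 ratio of fasted over control (horizontal axis) for each light chain gene, as circles relative to the median gene with the counting interval as a pale bar, and as diamonds with RPKM as deposited. Dashed lines mark 2-fold. Circles of 7 genes lie left of the lower line, from -8.43 to -1.22, and 4 diamonds do.

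Both light chains that differed most were of the slow or cardiac type. A regulatory light chain 2B named for cardiac muscle (gene3992, scaffold NW_011322509.1, bases 599565 to 604510, minus strand) had 928 RPKM from 12944 control reads and 3.26 RPKM from 44 fasted reads. It ranked 74 in the control against 7695 in the fasted library. Its log2 ratio was -8.43 (counting interval of the read ratio, which has no pseudocount, -9.10 to -8.21), and only 1 of the 11417 genes had a lower ratio. That gene was slow skeletal troponin I (gene2739, -8.61), the inhibitory subunit of the slow thin filament, at 158 and 0.0692 RPKM. Where the fasted RPKM is near 0, the added 0.5 RPKM sets the ratio and so the rank. Without it, the counting interval of gene2739 was -16.9 to -9.16. That of cell death activator CIDE-3 (gene17055, ratio -7.05) was -10.7 to -7.47, which overlaps that of gene3992. With 0.5 RPKM added, the genes of at least 50 RPKM next nearest to gene3992 were a parvalbumin beta (gene3144, -7.75) and liver-expressed antimicrobial peptide 2 (gene18946, -7.27). The other gene of the 2B name, gene1520, was listed at 0 RPKM in both libraries.

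The essential chain MYL3, which in mammals serves both the heart ventricle and slow fibres, was gene2822 (scaffold NW_011322478.1, bases 868340 to 870968). Its level was 839 RPKM in the control, from 13020 reads, and 30.0 RPKM in the fasted library, from 450 reads. Its log2 ratio was -5.26 (counting interval -5.43 to -5.15), which 17 genes undercut. A ventricular regulatory light chain 2 (gene12315, myl2a) stood at 68.7 and 31.6 RPKM, with a log2 ratio of -1.59 (counting interval -1.77 to -1.44). Gene10859, outside the 10 (myl2 in the event table), carries the same name and stood at 39.3 and 11.8 RPKM, with a ratio of -2.18.

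The pair of abundant slow or cardiac-type chains was thus close in the control, where gene3992 had 1.11 times the RPKM of gene2822, and unequal in the fasted library, at 0.109 times. All 3 genes of this type among the 10 were at least 2-fold lower, on the centred scale and as deposited, against 16.6% and 8.88% of all genes. This count is a description, since all 3 are among the 10 through their control levels. The fasted 3.26 RPKM of gene3992, 30.0 RPKM of gene2822 and 31.6 RPKM of gene12315 lay below the 57.2 RPKM of gene8809, which is outside the 10. The share of these 3 genes in the summed RPKM of the 10 was 1.68% in the control against 0.104% in the fasted library. As a share of reads it was 1.83% (Wilson interval 1.81 to 1.86) and 0.114% (0.107 to 0.122).

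Most markers of slow fibres were also lower. Of 17 slow-fibre genes compared (20 listed), 12 were lower by at least 2-fold, against 16.6% of all genes, and 0 were higher (median -2.54). As deposited, 12 were lower, against 8.88%, and 1 was higher, against 29.7%. Of the 20, 2 were at 0 in the control against 3 in the fasted library. Their summed level was 2255 RPKM in the control and 429 RPKM in the fasted library. Of 28 fast-fibre genes compared (38 listed), 17 were lower and 2 were higher (median -1.31). As deposited, 13 of these fast-fibre genes were lower and 5 were higher (median -0.82). Myoglobin, the oxygen store of red muscle, stood at 27.1 and 1.02 RPKM. Other members of the slow list did not go this way. A slow troponin T (gene22983) stood at 23.6 and 31.1 RPKM (-0.09). Slow troponin I genes stood at 4.87 and 10.2 RPKM (gene1589, 0.51) and at 0.449 and 1.66 RPKM (gene3449, 0.70, or 1.19 as deposited). Myosin-7 genes, the slow heavy chain of mammals, had 4 copies at ratios from -3.11 to -1.49 and a copy at 0 in both libraries. Hemoglobin genes, which mark blood, were also lower, 8 of 8 compared (13 listed), with summed RPKM of 568 and 44.7, and 1 of the 13 was at 0 in the control against 5 in the fasted library. Fewer slow fibres in the piece of muscle and less RNA per fibre cannot be told apart in bulk samples, and the part of either in the result was not tested.

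Of 16 genes listed as markers of heart muscle, 8 were compared and 7 were at 0 in both libraries. All 8 compared were at least 2-fold lower, centred and as deposited, against 16.6% and 8.88% of all genes (median -3.24, summed 1559 and 176 RPKM). All 6 natriuretic peptide genes on the list were at 0 in both libraries. They were natriuretic peptides A, brain natriuretic peptide and C-type natriuretic peptides 1 to 4. Homeobox protein Nkx-2.5, a transcription factor of the heart, reached at most 0.134 RPKM in 1 copy and was at 0 in the other. The cardiac genes compared were Myosin-6, cardiac troponin T and cardiac myosin-binding protein C. A cardiac troponin T gene (gene1736) stood at 431 and 5.74 RPKM, and a Myosin-6 gene (gene3621) at 509 and 92.0 RPKM. The part of heart muscle RNA in the light chain values was not tested.

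The smooth or non-muscle chains split. Regulatory light chain 2 of the smooth muscle minor isoform (gene9853, myl12.1, scaffold NW_011322740.1, bases 294905 to 296412, minus strand) was the 1 member with a higher value, at 229 RPKM in the control and 646 RPKM in the fasted library. Its reads numbered 3933 and 10723. The log2 ratio of 1.01 sat at the 2-fold line (counting interval 0.96 to 1.07), and it was below that line under 4 of the other settings tried (lowest 0.75), while as deposited it was 1.49. The sign was positive in each of them.

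Regulatory light polypeptide 9 (gene189), a regulatory chain of smooth muscle in mammals, stood at 68.9 and 39.5 RPKM, with a log2 ratio of -1.28 (counting interval -1.44 to -1.13). Light polypeptide 6 (gene1660), the essential chain of smooth and non-muscle myosin, stood at 75.4 and 59.3 RPKM, with a ratio of -0.83 (counting interval -0.95 to -0.71). Gene9853 had 3.32 times the RPKM of gene189 in the control and 16.4 times in the fasted library. The share of this type in the summed RPKM of the 10 genes was 0.342% in the control against 1.20% in the fasted library. Gene9853 alone made up 0.210% and 1.04%, and thus most of the difference. In reads the share of this type was 0.429% (Wilson interval 0.419 to 0.440) and 1.52%.

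Smooth muscle markers, set beside gene9853, had no member past 2-fold upward. Of 8 compared (9 listed), 5 were lower by at least 2-fold and 0 were higher, against 16.6% and 16.1% of all genes. As deposited, 4 were lower and 0 were higher, against 8.88% and 29.7%. Their summed RPKM was 129 in the control against 86.8 in the fasted library. None of the 9 was at 0. Smooth muscle Myosin-11, a heavy chain that pairs with such light chains in mammals, stood at 12.9 and 10.9 RPKM (gene11774). Of the 7 non-muscle and smooth muscle heavy chain genes, 5 were compared, 0 were higher and 1 was lower (median -0.80); the most abundant, Myosin-9 (gene22392), stood at 32.0 and 25.6 RPKM. Leukocyte markers had 0 of 5 compared genes past 2-fold (median 0.20; 16 listed, 5 at 0 in each library, summed 11.1 and 17.3 RPKM). As deposited, 2 of the 5 were higher, where 29.7% of all genes were. Both were macrophage mannose receptor 1 (gene10671 at 1.08 and gene13835 at 1.26). Fibroblast markers were lower for 5 of 6 compared (7 listed, 0 and 1 at 0, summed 739 and 151 RPKM) and skin markers for 6 of 9 (23 listed, 6 and 8 at 0, 1885 and 434 RPKM). As deposited, 4 fibroblast markers were lower, and of the skin markers 6 were lower and 1 was higher. For these lists and the adipocyte list, the share of all genes that were lower was 16.6%, or 8.88% as deposited. Of 3 genes compared from the adipocyte list (5 listed, 2 at 0 in each library, summed 109 and 33.0 RPKM) 1 was lower. That gene was cell death activator CIDE-3 (gene17055), at 66.1 and 0.203 RPKM (-7.05). The others compared were adiponectin receptor genes (gene9212 at -0.93, gene21060 at -0.56), which the name pattern for adiponectin took in. The part of any of these cell types in the light chain values was not tested.

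**Figure D3:**
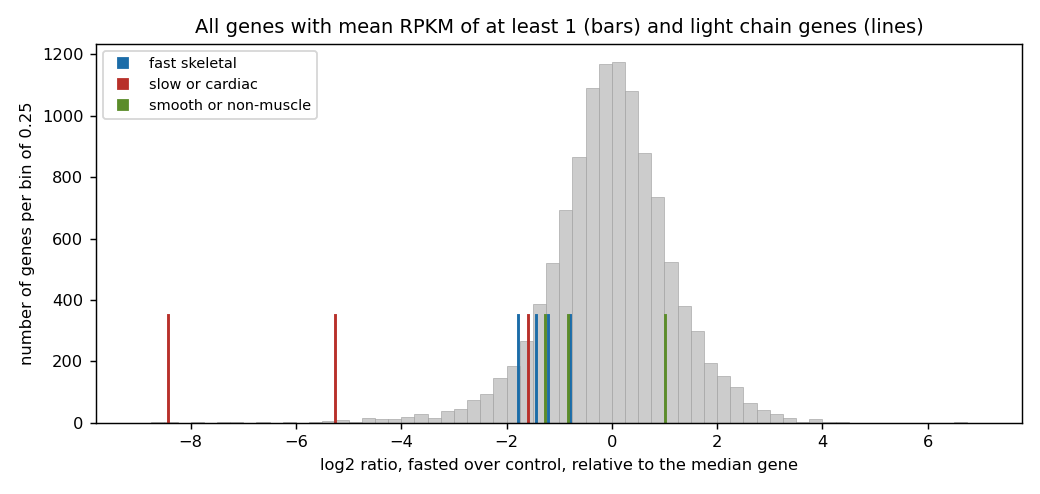
Number of genes (vertical axis) by log2 ratio of fasted over control relative to the median gene, in bins of 0.25, for the 11417 genes compared, with coloured lines at the 10 light chain genes. Most lines lie between -1.78 and -0.79, those of gene2822 and gene3992 lie in the far lower tail, and that of gene9853 lies at 1.01.

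Beyond the 10, 8 genes carried a light chain name at lower levels. Light chain 4 (gene8809), the atrial and embryonic essential chain of mammals, stood at 24.4 RPKM in the control and 57.2 RPKM in the fasted library (log2 ratio 0.73, counting interval 0.58 to 0.92). With gene9853 it was the only one of the 15 compared genes with a ratio above 0. The other copy of light polypeptide 9's name (gene7328, myl12.2) was covered by 73 reads in the control against 0 in the fasted library. With a floor of 3 reads for a library at 0, it was at least 32.9-fold lower than the control, relative to the median gene, while its log2 counting interval, which also holds the error of the control reads, reached up to -4.70. Light chain 5 (gene23277) stood at 3.62 and 1.87 RPKM, and the other light polypeptide 6 (gene16082, myl6) at 1.36 and 1.23 RPKM. The atrial regulatory chain (gene7698, myl7) was listed at 0 in both libraries, and the other light chain 4 (gene16016) stayed below 1 RPKM.

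The deposited splice events add the shape of the transcripts. Each library listed 28 events at the 10 genes, as FPKM (fragments per kilobase, scaled to library size) of first exons, last exons, skipped exons and retained introns. The FPKM come with no counts, so their depth is unknown and no interval is given. The first and last exon of a gene mostly carried the same FPKM, as for gene3992 at 574 FPKM in the control. The FPKM come from the same libraries as the RPKM and are not independent of them, so closeness is no separate check. With that limit, the first-exon FPKM gave ratios close to those of RPKM for most members. As deposited, gene3992 had a first-exon log2 ratio of -7.94 and an RPKM ratio of -7.95, and gene2822 had -4.79 and -4.78. Light chain 1 differed by 0.25. The exception was gene189, at 0.33 against -0.80. Its first exon lay 2969 bases upstream of the annotated gene, at 14.8 FPKM in the control and 18.7 FPKM in the fasted library, whereas its last exon stood at 24.4 and 18.7 FPKM.

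The higher gene9853 was listed with different first exons. In the control the first exon spanned bases 296229 to 296412, at 191 FPKM. On the minus strand this exon begins at the annotated start and lies inside the gene. In the fasted library the first exon spanned bases 297793 to 297879, the near edge 1381 bases upstream of the annotated start, at 473 FPKM. The first exon of the control was not listed as such in the fasted library. Without replicates it is not known whether this difference repeats.

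A retained intron of 88 bases was listed for the major fast regulatory chain gene14471 in both libraries (bases 185731 to 185818). The form with the intron had 11488 of 29715 FPKM in the control, or 38.7%, and 33.0% in the fasted library. Gene1660 had a skipped exon of 35 bases (2540033 to 2540067) upstream of its last exon, and in mammals the light chain 6 transcript is also alternatively spliced near its end. The form with the exon made up 52.4% of FPKM in the control against 72.7% in the fasted library. A further skipped exon of 28 bases was listed for the fasted library alone, with the same FPKM for each form as the 35-base exon. For gene3992 a 157-base exon (603834 to 603990) was present in 13.2% of FPKM in the control, and no skipping was listed in the fasted library, where the first exon had 1.83 FPKM. Of regions outside the annotation, 0 lay within 5000 bases of the 10 genes in either library.

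The heavy chains, which carry the light chains, had more reads in the fasted library when summed, unlike the light chains. The 28 muscle heavy chain genes took 1267034 reads in the control and 2422641 reads in the fasted library. The ratio of light to heavy chain reads was 1.16 in the control against 0.334 in the fasted library, a 3.47-fold difference. Without gene13427, the fast heavy chain gene with most reads, the ratio was 2.62 in the control against 0.831 in the fasted library. Several abundant heavy chain models are short pieces of a gene, the most abundant (gene23811) with a coding length of 498 bases, so summed RPKM would count pieces of a gene more than once. Per length, against the 10 models of at least 4500 bases, the ratio of light to heavy chain RPKM was 20.8 in the control against 6.48 in the fasted library. Near-identical heavy chain copies may share reads, so single copies are uncertain.

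Gene by gene the heavy chains went both ways. Of 21 compared, 13 were lower by at least 2-fold and 1 was higher (median -1.32), against 16.6% and 16.1% of all genes. As deposited 10 were lower and 4 higher, against 8.88% and 29.7%. The most abundant, gene23811, stood at 13876 and 34088 RPKM (0.81), and the long fast model gene13427 at 4417 and 9359 RPKM (0.60). The highest was gene13428 at 1.31, and the lowest were gene3620 (-3.73), also named fast skeletal, and a Myosin-6 fragment (gene23797, -3.54). The 8 genes named Myosin-6 or Myosin-7 took 7.50% of heavy chain reads in the control against 0.748% in the fasted library, the same direction as that of the slow or cardiac-type light chains. These 8 genes and the fast skeletal heavy chains were also counted in the marker lists above, so the heavy chain counts are not separate from those.

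**Figure D4:**
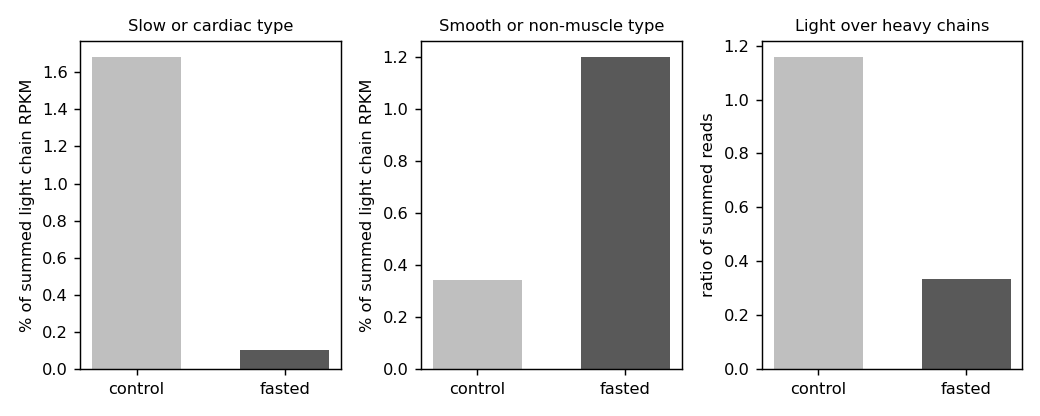
Bars give, for the control and the fasted library, the share of slow or cardiac-type genes and of smooth or non-muscle genes in the summed RPKM of the 10 light chain genes (per cent), and the ratio of light to heavy chain reads. The first went from 1.68% to 0.104% and the second from 0.342% to 1.20%, of which gene9853 made up 0.210% and 1.04%. The ratio went from 1.16 to 0.334.

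Kinases and phosphatase parts that act on the regulatory chain lay mostly within 2-fold, as did 7682 of all 11417 genes compared. The balance of calls turned with the scaling, as it did over all genes. Of 21 compared (24 listed), 4 were lower and 1 was higher (median -0.51), against 16.6% and 16.1% of all genes. As deposited 1 was lower and 2 were higher (median -0.026), against 8.88% and 29.7%. Myosin light chain kinase family member 4 had a copy at 45.5 RPKM in the control and 9.91 RPKM in the fasted library (gene15677, -2.62) and a copy at 4.60 and 11.9 RPKM (gene16476, 0.80). Phosphatase subunit 12A, which targets the phosphatase to myosin, had a copy at 35.1 and 21.0 RPKM (gene11850, -1.21). The inhibitory phosphatase subunit 14C stood at 3.30 and 25.0 RPKM (gene8251, 2.26).

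Other thick filament proteins were lower in 9 of 14 genes and higher in 1 (median -1.04). For this list and those below, the shares over all genes were 16.6% lower and 16.1% higher, or 8.88% and 29.7% as deposited. As deposited, 5 thick filament genes were lower and 1 was higher (median -0.55). For troponins and tropomyosins 18 were lower and 2 higher, and for other EF-hand proteins 7 and 0. Fast-type myosin-binding protein C, which stabilises the thick filament, stood at 1077 and 144 RPKM (gene5590, -3.38) and Myomesin-2, of the M-band, at 651 and 110 RPKM (gene16836, -3.04). The most abundant, a myosin-binding protein H, had a ratio of -1.06 (gene3452) and its other copy 2.26 (gene1593), while a titin model had -0.13 (gene17154), or 0.35 as deposited. Troponins and tropomyosins of the thin filament were lower in 21 of 28 and higher in 1 (median -2.16), from -8.61 for gene2739 and -6.60 for gene1736 to 3.42 for a fast troponin I (gene14839), and the most abundant, a fast troponin T (gene14842), had -1.30. Other EF-hand proteins, relatives of the light chains, were lower in 9 of 12 and higher in 0 (median -1.63). The troponin C genes gene4589, gene22888 and gene13523 are among the 9 and were also counted with the troponins. Most lower genes of the troponin and tropomyosin list and of the EF-hand list were already counted among the fibre markers above. They include slow, fast and cardiac troponins, tropomyosin alpha-3 and parvalbumins, so these lists are not separate from the markers. The most abundant of the EF-hand list, a parvalbumin beta that buffers calcium, stood at 147098 and 40557 RPKM (gene3887, -2.34). A calmodulin gene stood at 333 and 384 RPKM (gene15370, -0.28, or 0.21 as deposited). The 6 myosin chaperone genes, which fold and assemble the heavy chain, had 0 past 2-fold in either direction (median -0.40), with SMYD1 at 415 and 502 RPKM (gene21928, -0.21, or 0.27 as deposited). As deposited, the sign of that median turned, to 0.081.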

How the data were processed

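The authors deposited RPKM per gene and RPM (reads scaled to a common total) in a comparison table with fold changes, log2 fold changes and p-values, per the file headers. The sources used here do not say how the deposited p-values were made, with no replicates, so they were not used. The authors' calls of up and down are given as listed, and what they rest on is likewise not said. Event files hold FPKM per event, per the file headers. HTSeq, SAMtools 0.1.19, TopHat and TopHat2 2.0.12 are named, without roles, per the submitters' processing notes. Build and strand setting: not given in the sources used here. No annotated gene overlaps the 10.

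Whole reads were recovered from RPM: within 0.1 read, 100% of 16725 control and 16599 fasted values came out whole. Of 12753 gene models, 92.3% had lengths that were multiples of 3, so RPKM is per coding length. Copies with near-identical sequence may share reads, and gene3992, gene1660, gene189 and gene12315 share their names with another gene. Ratios were centred because the median lay over 0.1 from 0. No count test was run, since 1 library per group gives no dispersion. Without molecular identifiers, reads are no independent molecules, so intervals and floors cover counting error only. The ratio and interval steps were tested on simulated counts drawn from the control levels with counting error only. The simulation did not cover the recovery of reads, the scaling to each library's own size or spread between fish. RefSeq symbols (L_crocea_2.0 table) matched 8 of the 10 genes, by symbol or gene number in the event table; members of each type follow their protein names.

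All 10 members are named, and of the partner lists up to 2 genes at each end with at least 5 RPKM and the most abundant one; of these a part is given in the text. Members and lists were chosen with earlier results of these data known. From the EF-hand list 11 proteins that only begin with the word calmodulin were removed after values were seen. Python 3.11.15, pandas 2.3.3 and SciPy 1.17.1 were used.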

Additional observations from a re-analysis of the deposited data

How the results depend on the processing

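None of the 80 alternative values of single light chain ratios changed sign. For several settings only the subtracted constant differed (0 to 0.74). Under these, genes lower as deposited could not change sign, so the count is no separate check for them. The single-gene values with no filter repeat those as deposited. The count of lower genes among the 10 went from 7 to 4 as deposited and to 4 with no filter, where genes without reads put the median at 0 so that no centring applied. It was 9 with the upper quartile, at a mean of at least 5 RPKM and at 1.5-fold, 2 at a 4-fold threshold and 3 among the 5 most abundant. The count of higher genes went from 1 to 0 at a 4-fold threshold, with a pseudocount of 0.1 RPKM, at a mean of at least 5 RPKM, with the upper quartile and with reads. The median of -1.36 became -0.87 as deposited and -0.87 with no filter, -1.62 at a mean of at least 5 RPKM, -1.60 with the upper quartile and -1.22 for the 5 most abundant. Over all genes, lower and higher genes numbered 1014 and 3389 as deposited, 3160 and 3144 at 1.5-fold, 532 and 445 at 4-fold, 1156 and 1055 at a mean of at least 5 RPKM, 2560 and 1338 with the upper quartile, and 3681 were higher with no filter. The threshold and the minimum set their counts by construction; as deposited, with the same genes and threshold, only the centring was dropped, and with no filter more genes entered and the centring was 0.

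Choices made after seeing the data gave a ratio of light to heavy chain reads in the control and fasted library of 1.25 and 0.336 with fast skeletal heavy chains only, 2.62 and 0.831 without the heavy chain gene with most reads, and 1.16 in the control without fragments. The essential to regulatory ratio was 1.05 and 1.25 in reads. The share of slow or cardiac-type chains was 1.72% and 0.123% over all matches, and 1.83% and 0.114% in reads. No paired analysis was possible because each group has 1 library and no test was run. Depth limits gene3992 in the fasted library, with 44 reads.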
